A study of Caenorhabditis elegans with 2 samples.

Results

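Condensin genes were examined in a chromatin immunoprecipitation sequencing experiment that mapped where the protein Y116A8C.19 sits on the Caenorhabditis elegans genome. The set holds 9 genes, hcp-6, capg-2, kle-2, smc-4, mix-1, capg-1, dpy-26, dpy-27 and dpy-28, out of 19973 protein-coding genes in the annotation. It was chosen on the signal measured at hcp-6, one of the strongest sites of the experiment, and was filled up with the genes of the other condensin subunits. The values at hcp-6 are therefore given as a description, without a test. The 2 samples were biological replicates of 1 group: whole hermaphrodite worms at the L1 larval stage, 6 hours after synchronization by starvation at hatching. All worms were of strain OP532, which carries the allele unc-119(tm4063) on chromosome III and the integrated transgene wgIs532. The transgene makes Y116A8C.19 with a C-terminal GFP and FLAG tag, through which an anti-GFP antibody recovered the bound DNA. The promoter that drives the transgene is not given in the sources used here, and whole larvae mix all tissues. There was no second condition, and no control sample was analysed here, so the comparisons are among genes and between replicates.

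Condensins are ring-shaped complexes that fold and compact chromosomes. Each is built from a pair of SMC ATPases closed by a kleisin subunit, to which a pair of HEAT-repeat subunits binds. C. elegans has 3 of them, with 5 subunits each. Condensin I and condensin II act on all chromosomes in cell division, and a variant of condensin I, the core of the dosage compensation complex, lowers expression from both X chromosomes of hermaphrodites. MIX-1 is an SMC subunit of all 3 complexes. SMC-4 is its partner in condensins I and II, and DPY-27 takes that place in the dosage compensation complex. KLE-2 (kleisin), HCP-6 and CAPG-2 (HEAT-repeat subunits) belong to condensin II, while DPY-26 (kleisin), DPY-28 and CAPG-1 (HEAT-repeat subunits) serve both condensin I and the dosage compensation complex. The genes lay on 5 chromosomes, with 4 of them on chromosome III, 2 on chromosome I and 0 on X.

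Of the 9 genes, only hcp-6 had a peak of the thresholded list in its promoter window. The authors' thresholded list, made with the irreproducible discovery rate (IDR), held 198 peaks. A gene was counted when a summit lay from 1000 bp upstream to 200 bp downstream of its annotated 5′ end, and 1.18% of all protein-coding genes met that count. The pooled list of 2689 regions, called on both replicates together, also held a region in the window of hcp-6 and of none of the other 8 genes, where 6.66% of protein-coding genes had one. The IDR peaks are the top of the pooled list: the weakest IDR peak had a signal of 55.0 and the strongest pooled region below the threshold had 54.9. Signal here is the value the authors gave each region, on a scale that is not given in the sources used here, and it ranks regions within a list only. Read depth is unknown, since the lists keep no read counts.

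The hcp-6 peak lay in the gap between the gene and let-630, which runs the other way on the opposite strand. The annotated 5′ ends of both genes are 264 bp apart, at hcp-6 (WBGene00001833, chromosome I from 5165148 to 5171313, plus strand, ce11) and let-630. The peak spanned 5164965 to 5165108, or 144 bp, wholly within the 263 bp that no annotated gene covers. Its summit stood at -113 bp from the 5′ end of hcp-6 and at -151 bp from that of let-630, where a negative distance is upstream. The position is thus upstream of both genes, and the lists cannot assign it to one of them.

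In both replicates the region at hcp-6 stood among the strongest listed. Its signal was 136.1 in the pooled list, rank 22 of 2689. In replicate 1 it was 91.4, rank 14 of 22595, and in replicate 2 it was 41.8, rank 42 of 22358, or rank 40 without the 2 mitochondrial regions of that list. Summits fell at -113 bp in the pooled list, -114 bp in replicate 1 and -127 bp in replicate 2, so that the replicates differed by 13 bp. The signal was 7.60 times the median of the list in replicate 1 and 4.38 times in replicate 2. The value of replicate 1 was 2.19 times that of replicate 2, against a median ratio of 1.69 (quartiles 1.34 and 2.13) over the 196 IDR peaks seen in both lists. The regions of each replicate were called separately and the scale of the signal is not given, so this ratio does not compare amounts of bound protein. On chromosome I the region ranked 3 in the pooled list and in replicate 1, and 4 in replicate 2.

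**Figure D1:**
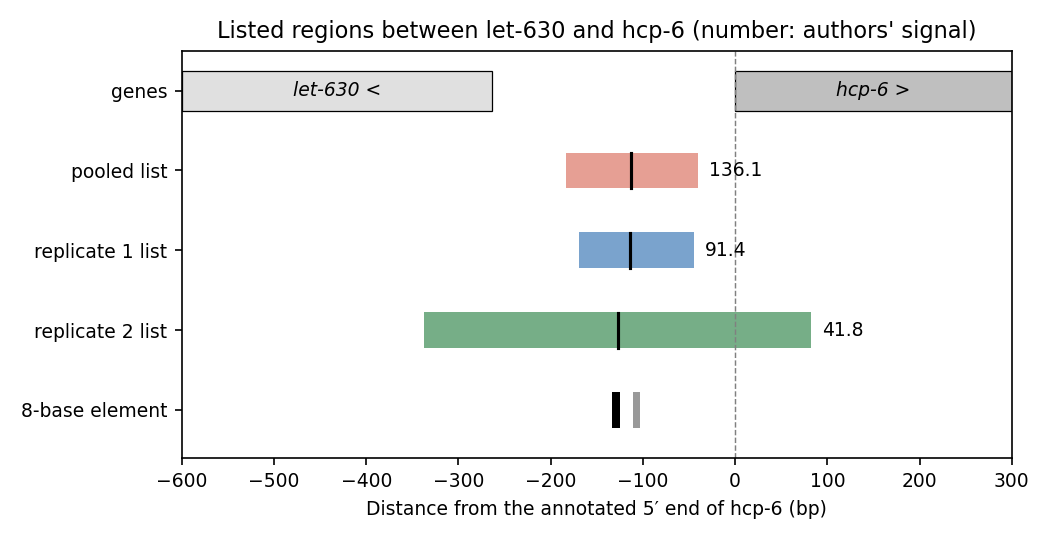
Regions of the pooled list and both replicate lists (bars) and their summits (black lines) around the annotated 5′ end of hcp-6, by distance in bp, with the authors' signal beside each bar. Annotated genes are on top, let-630 on the other strand, and copies of an 8-base element at the bottom (black, exact; grey, with 1 mismatch). The 3 summits lie from -127 to -113 bp, between the genes.

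The peak was narrow, and the regions nearest to it had much lower signals. It was one of 19 narrow peaks among the 198, whose common width was 390 bp, and it ranked 15 among those 19 by signal. The peaks next to it in rank, 21 and 23, were narrow as well, at 128 and 110 bp. Width thus did not set it apart from peaks of like signal. The region of replicate 1 was also narrow, at 125 bp, while that of replicate 2 had the common width of its list, 420 bp, and overlapped the first bases of both genes. The nearest other pooled regions were 92.6 kb to the left and 11.4 kb to the right, with signals of 25.02 and 33.1. In replicate 1 the neighbours on either side, 7.79 kb and 5.63 kb away, had signals of 11.8 and 13.5. In replicate 2 they were 16.997 kb and 11.1 kb away, with signals of 11.6 and 13.6. List medians, for comparison, were 12.01 in replicate 1 and 9.53 in replicate 2. The body of hcp-6 held no pooled region, no region of replicate 2 and 1 region of replicate 1, that of signal 13.5.

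The peaks most like that of hcp-6 in their signals over the 3 lists stood beside mrt-2, pinn-1 and cyn-10. Likeness was the sum of absolute log2 differences in signal over the pooled and both replicate lists. It came to 0.13 for mrt-2, a checkpoint gene needed to keep telomeres, with signals of 137.1, 95.3 and 40.02 in the pooled, replicate 1 and replicate 2 lists. It was 0.18 for pinn-1, which encodes a prolyl isomerase, and 0.24 for cyn-10, a cyclophilin gene. Summits lay at 159 bp inside mrt-2, at -391 bp from pinn-1 and at -134 bp from cyn-10. Like the hcp-6 peak, these peaks were narrow, at 143, 148 and 151 bp. None of these 3 was upstream of a pair of divergent genes as the hcp-6 peak was, since each summit lay in the window of 1 protein-coding gene.

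The other subunits specific to condensin II had only weak regions. For capg-2, replicate 1 listed a region with signal 10.6, rank 16596 of 22595, its summit at -571 bp and inside a coding exon of the divergent gene tsfm-1, a mitochondrial translation factor gene. Replicate 2 listed none in the window. For kle-2, replicate 1 listed a region of signal 11.9 at -686 bp and replicate 2 one of signal 10.7 at -709 bp, 23 bp apart. These summits lay nearer to C29E4.12, the gene just upstream on the same strand, at -120 and -143 bp from its 5′ end. Of the 8 other condensin genes, kle-2 was the only one with summits of both replicates inside the promoter window and within 100 bp of each other. They ranked 11679 and 7310 in their lists.

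At the SMC genes no window held a region with a signal above 13.8. The smc-4 window held 1 region of replicate 1 with signal 12.1, rank 11013, whose summit fell at -209 bp, 38 bp inside the 5′ UTR exon of the divergent gene F35G12.7, and none of replicate 2. No list had a region in the mix-1 window. The closest were at 4672 bp inside mix-1 in replicate 1 and at -5271 bp in replicate 2. The dpy-27 window held 1 region of replicate 1 at its far edge, -988 bp, with signal 13.8 and rank 6712, and none of replicate 2. That summit lay nearer to R13G10.5, a non-coding RNA gene.

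Inside the long mix-1 gene a pooled region of signal 32.7, rank 654, lay in an intron at 16048 bp from the 5′ end, with signals of 19.9 in replicate 1 and 12.5 in replicate 2. That summit was also in the promoter window of M106.6. In dpy-27 a pooled region of signal 25.5, rank 2196, lay in an exon at 6175 bp. These 2 were the only pooled regions within any of the 9 genes. Their density, 0.0294 per kb over 68.1 kb of gene, compares with 0.0268 per kb over the nuclear genome. For replicate 1 the densities were 0.264 per kb in the 9 genes and 0.225 per kb in the genome, and for replicate 2 they were 0.220 and 0.223. The replicate values rest on 18 and 15 regions in the genes.

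Among the genes of condensin I, dpy-26 had the strongest window region of replicate 2 after that of hcp-6. It had a signal of 14.4 and rank 1796, at -678 bp, while replicate 1 had a region of signal 13.6 and rank 7147 at -66 bp. These summits were 612 bp apart, so the replicates did not mark the same position. In the dpy-28 window, replicate 1 had a region of signal 10.7, rank 16292, at -584 bp and inside the upstream gene tasp-1. Replicate 2 had one of signal 8.63, rank 15162, at 61 bp, in the coding sequence of dpy-28. These summits were 645 bp apart, and both signals were below the median of their list. The capg-1 window held none in either replicate, and the closest region was at -1959 bp in replicate 2.

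Counted over the replicate lists, which hold background regions as well as peaks, 7 of the 9 genes had a region in replicate 1 and 4 had one in replicate 2. The same 4, hcp-6, kle-2, dpy-26 and dpy-28, had one in both. Over all protein-coding genes the shares were 30.1% for replicate 1, 29% for replicate 2 and 12.9% for both. The counts of condensin genes include hcp-6, on which the set was chosen, and do not show an excess. At the regions of the other genes the deposited −log10 q-value ran from 0.0283 to 0.336. At hcp-6 it was 2.71 in replicate 1 and 2.20 in replicate 2. The best signals of the 6 genes other than hcp-6 in replicate 1 ran from 10.6 to 13.8 with a median of 11.998, below the median of 12.7 over the 6013 protein-coding genes with a region. In replicate 2 the 3 other genes had 8.63, 10.7 and 14.4, where the median over 5784 genes was 9.96. The hcp-6 value was 6.62 times the highest of the others in replicate 1 and 2.90 times in replicate 2. Only 18 protein-coding genes in replicate 1 and 51 in replicate 2, hcp-6 included, had a region at or above it.

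**Figure D2:**
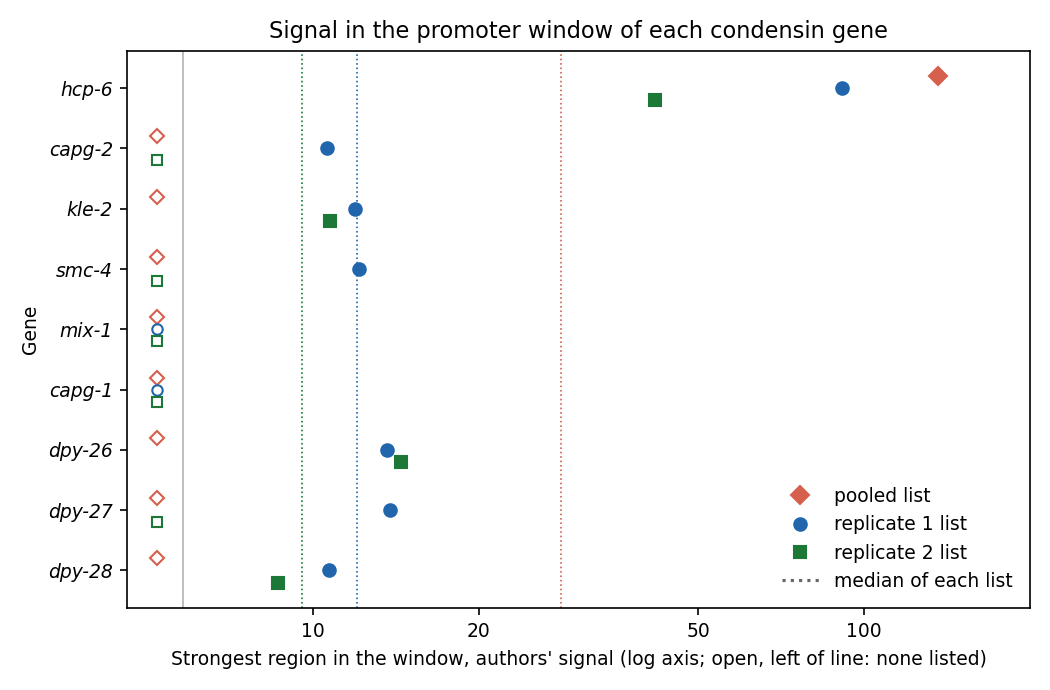
Signal of the strongest region in the promoter window of each of the 9 genes, on a log axis in the authors' units, in the pooled list (diamonds), replicate 1 (circles) and replicate 2 (squares). Open symbols left of the line mark a list with no region in the window, and dotted lines are list medians. Filled symbols of hcp-6 stand at 91.4 in replicate 1 and 41.8 in replicate 2, where the other genes reach 13.8 and 14.4. The pooled value of hcp-6, 136.1, has no counterpart, since no other gene had a pooled region in its window.

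Although dpy-28 had no peak in its own window, the gene just upstream of it did. The annotated 5′ end of dpy-28 begins 109 bp after the end of tasp-1, a threonine aspartase gene on the same strand of chromosome III. Worm genes that follow each other this closely on a strand are often transcribed together as an operon, with the promoter before the first gene, but whether these 2 genes are was not tested. The IDR peak at tasp-1 spanned 10759084 to 10759473 and had a signal of 155.2, rank 11, above that of hcp-6. Its summit was at -28 bp from tasp-1, at -3852 bp from dpy-28 and at -757 bp from K01G5.10 on the other strand. Replicate 1 gave it a signal of 89.4 (rank 15) and replicate 2 one of 68.1 (rank 9).

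The tasp-1 peak was the IDR peak closest to any of the 8 genes without one, for which that distance had a median of 125.7 kb and reached 598.2 kb at capg-2. Of the 9 genes, kle-2 was the other one with a gene ending within 500 bp upstream on its strand, at 102 bp. That gene, C29E4.12, had only the weak regions of rank 11679 and 7310 in its window. If a gene is also counted through such an upstream gene, 2 of 9 condensin genes had an IDR peak, hcp-6 and dpy-28. Over all protein-coding genes the share was 1.53%. The set was chosen on hcp-6, and the rule that counts dpy-28 was added after these values were seen. The count of 2 is thus a description and does not show an excess.

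**Figure D3:**
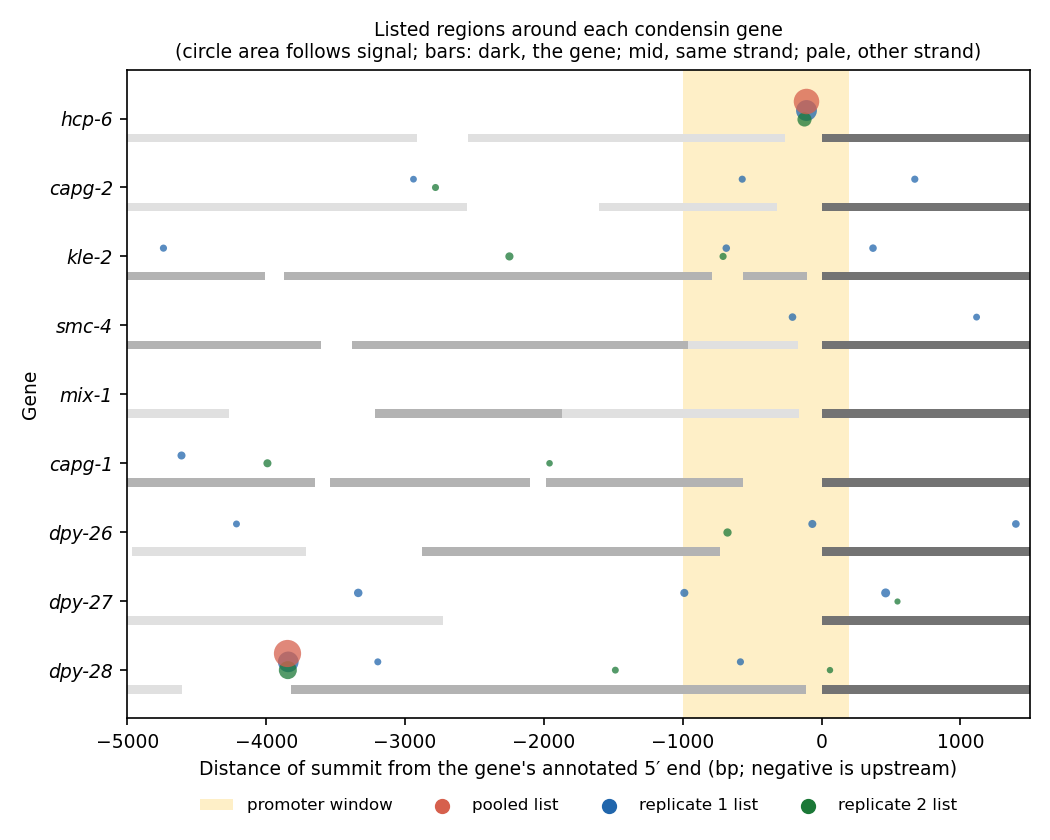
Summits of listed regions by distance in bp from the annotated 5′ end of each of the 9 genes, with circle area following the authors' signal. Bars are protein-coding genes (dark, the gene itself; mid grey, same strand; pale, other strand), and the shaded band is the promoter window. The only large circles are at -113 to -127 bp of hcp-6 and at -3841 to -3852 bp of dpy-28.

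Besides hcp-6, 3 condensin genes had a divergent neighbour. For hcp-6, capg-2, smc-4 and mix-1 a protein-coding gene on the other strand began within 1000 bp upstream, at 264, 322, 171 and 165 bp. These were 4 of 9 genes, or 44.4%, against 17.7% of all protein-coding genes. The share includes hcp-6, which was chosen for a peak that lies in such a gap. It is a description and does not show an excess. Of the 4, hcp-6 alone had an IDR peak. Of all genes with such a neighbour 3.7% had one, against 1.18% of all protein-coding genes. Thus 3 condensin genes shared the head-to-head arrangement of hcp-6 without a pooled region between the pair.

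The hcp-6 peak held a sequence that recurs in the strongest sites. A pair of 8-base elements, CTAGGCCA and GAGTACAC, were found earlier in IDR peaks of odd rank, and hcp-6, at rank 22, was not among the peaks they came from. They were searched on both strands with up to 1 mismatch in the 151 bp centred on the summit. The hcp-6 window held 2 copies of CTAGGCCA and none of GAGTACAC. The exact copy began 20 bp to the left of the summit and the copy with 1 mismatch 2 bp to its right, so that they were 22 bp apart. Both read on the strand opposite to hcp-6, which is the strand of let-630, and both lay within the 144 bp of the peak. GC content of this window was 38.4%, at the lower quartile of the IDR peaks (median 42.4%, quartiles 38.4% and 47.7%).

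An exact CTAGGCCA was in 26.3% of the 99 IDR windows of even rank, hcp-6 included, and in 0.698% of 22358 windows at replicate 1 regions outside IDR peaks. With up to 1 mismatch the shares were 37.4% and 4.62%. For GAGTACAC they were 33.3% and 6.50%. The windows outside IDR peaks were not matched to the IDR windows in position relative to genes or in GC content. At least 2 copies of CTAGGCCA, as at hcp-6, were in 7 of the 99 even-rank windows, or 7.07%, and in 0.662% of the replicate 1 windows outside IDR peaks. Over all 198 IDR windows, which include the odd ranks the element came from, 17 held at least 2 copies. Copies in these 17 windows were 15 to 40 bp apart with a median of 22 bp, and in 10 of them all copies read on the same strand. Among the peaks most like hcp-6 in signal, those of mrt-2 and cyn-10 held both elements with up to 1 mismatch and that of pinn-1 held neither.

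The following stretches show the arrangement found at hcp-6, as it appears in other IDR peaks. They are 3 peaks with exactly 2 copies of CTAGGCCA on the same strand, at least 1 of them exact, no GAGTACAC, and no annotated exon in the stretch shown. Each is written 5′ to 3′ on the strand of the nearest gene from the WBcel235 (ce11) RefSeq genome, with the copies in capitals. On the printed strand CTAGGCCA reads TGGCCTAG when it lies on the other strand.
C49A9.10 (rank 25, signal 133.2, 19 bp apart, chrIV:6206565-6206611, minus strand): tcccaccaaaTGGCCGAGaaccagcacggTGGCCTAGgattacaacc
F10E9.11 (rank 84, signal 81.1, 22 bp apart, chrIII:8319294-8319343, minus strand): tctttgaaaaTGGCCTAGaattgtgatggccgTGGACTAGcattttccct
mog-3 (rank 138, signal 64.1, 31 bp apart, chrIII:5308415-5308473, plus strand): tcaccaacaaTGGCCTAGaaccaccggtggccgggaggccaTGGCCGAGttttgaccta
In the 3 printed peaks the copies read on the strand opposite to the nearest gene, as they do relative to hcp-6. The elements were taken from peaks of odd rank, which include that of C49A9.10.

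The tasp-1 peak upstream of dpy-28 also held 2 copies of CTAGGCCA, 34 bp apart, each with 1 mismatch and on the strand opposite to tasp-1, and none of GAGTACAC. Its rank was odd too. The first stretch runs from the left edge of the 151 bp window to the last base before tasp-1, and the second shows the copy that begins 18 bp inside the gene, both on the plus strand with the copies in capitals.
tasp-1, upstream (chrIII:10759204-10759306): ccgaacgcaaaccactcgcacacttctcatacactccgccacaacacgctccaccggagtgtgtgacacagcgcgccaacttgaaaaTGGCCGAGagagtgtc
tasp-1, inside (chrIII:10759314-10759343): caggtcatgcgCGGCCTAGttttaccatgt
These copies flank the 5′ end of tasp-1, at -16 to -9 bp and at 18 to 25 bp, and the summit lay 12 bp before the first.

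Among the other condensin genes, copies with 1 mismatch were found for capg-2, mix-1 and dpy-27. In the 1201 bp promoter windows, an exact CTAGGCCA was found for 1 of the 9 genes, hcp-6, and for 3.48% of all protein-coding genes. With up to 1 mismatch it was found for 3 of 9, hcp-6, capg-2 and mix-1, against 26.2% of all, a share near that of other genes. GAGTACAC with up to 1 mismatch was found for 1 of 9, dpy-27, against 40.006%. The copies of the genes without a peak are shown in capitals, each in 30 bases on the strand of the named gene.
capg-2, CTAGGCCA with 1 mismatch on the other strand at -858 bp, inside an exon of tsfm-1 (chrV:12271004-12271033): gatatagattgTGGCTTAGcttttgcgaga
mix-1, CTAGGCCA with 1 mismatch on the other strand at -199 bp, inside an exon of R06F6.12 (chrII:10824036-10824065): cggcctgttgtTGGGCTAGcaggattttct
dpy-27, GAGTACAC with 1 mismatch on the other strand at -548 bp, inside R13G10.5 (chrIII:3820209-3820238): atgaaatgggtGTGTGCTCgtgtgtgaccg
No pooled or replicate region overlapped any of these 3 copies. A copy is a match of letters and does not show that the protein binds there.

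The gaps between the divergent pairs of smc-4 and mix-1 are shown because they match that of hcp-6 in arrangement and held no peak. Both are written on the plus strand, from the base after the 5′ end of the other gene to the base before that of the named gene, and neither held a copy of either element, so no letter is in capitals.
smc-4 and F35G12.7 (chrIII:4587331-4587500, 170 bp): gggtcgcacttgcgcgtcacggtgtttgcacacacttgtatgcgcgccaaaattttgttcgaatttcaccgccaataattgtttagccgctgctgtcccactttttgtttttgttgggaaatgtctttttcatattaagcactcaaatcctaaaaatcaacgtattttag
mix-1 and R06F6.12 (chrII:10824082-10824245, 164 bp): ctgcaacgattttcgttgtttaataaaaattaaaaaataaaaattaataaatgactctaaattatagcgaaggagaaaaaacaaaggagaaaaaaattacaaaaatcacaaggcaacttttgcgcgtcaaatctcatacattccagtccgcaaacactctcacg

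Genes of related chromosome machinery gave 1 IDR peak among 62 matched genes, at smc-3, which encodes an SMC subunit of cohesin, the ring that holds sister chromatids together. That is 1.61% of the 62 genes, near the 1.18% of all protein-coding genes. The smc-3 peak (chromosome III from 11290519 to 11290908) had a signal of 80.1, rank 89, with 63.2 in replicate 1 (rank 47) and 18.7 in replicate 2 (rank 427). Its summit was at -190 bp from smc-3, but nearer to genes on the other strand, at -38 bp from mib-1, a ubiquitin ligase gene, and at -134 bp from gly-9, a glycosyltransferase gene. The smc-3 window is therefore, like that of hcp-6, shared with divergent neighbours. It held 1 exact copy of GAGTACAC and 1 copy of CTAGGCCA with a mismatch.

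In the pooled list, 6.66% of all protein-coding genes had a region in the window. The 9 condensin genes had 1, that of hcp-6, on which the set was chosen, and the 11 matched cohesin genes had 4. Beside smc-3, the strongest were wapl-1, the cohesin release factor (40.5 pooled, 17.7 in replicate 1, 21.3 in replicate 2), and mau-2, a cohesin loader subunit (29.1 pooled, 21.1 and 8.09 in the replicates). Of the 4 genes of the SMC5/6 complex, which acts in DNA repair, 2 had a pooled region, nse-1 (32.2) and smc-6 (30.1), and smc-5 had a region of 12.8 in replicate 2 alone. All these pooled values but that of smc-3 lie under the IDR threshold. They are also under the 136.1 of hcp-6, which was chosen for its strong signal.

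Further genes of the dosage compensation complex, listed together with genes of sex determination, had 1 pooled region among 8, or 12.5%. It was at dpy-21, a histone demethylase gene of that complex (30.9 pooled, 20.7 in replicate 1, 10.1 in replicate 2). The next, sdc-2, whose protein recruits the complex to X, had 18.5 and xol-1, the early switch of sex determination, had 10.0, both in replicate 1 alone. Centromere and kinetochore genes had 4 pooled regions among 25, or 16%, led by ndc-80 (32.6), zwl-1 (25.5) and the spindle checkpoint gene mdf-2 (25.2). Genes of chromosome segregation and topology had 1 among 14, or 7.14%, at ify-1, the worm securin gene (36.6). That share is near the 6.66% of all protein-coding genes. There, the topoisomerase gene top-2 had 17.3 in replicate 1 alone and the Aurora kinase gene air-1 had 12.9 at most, in replicate 2.

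**Figure D4:**
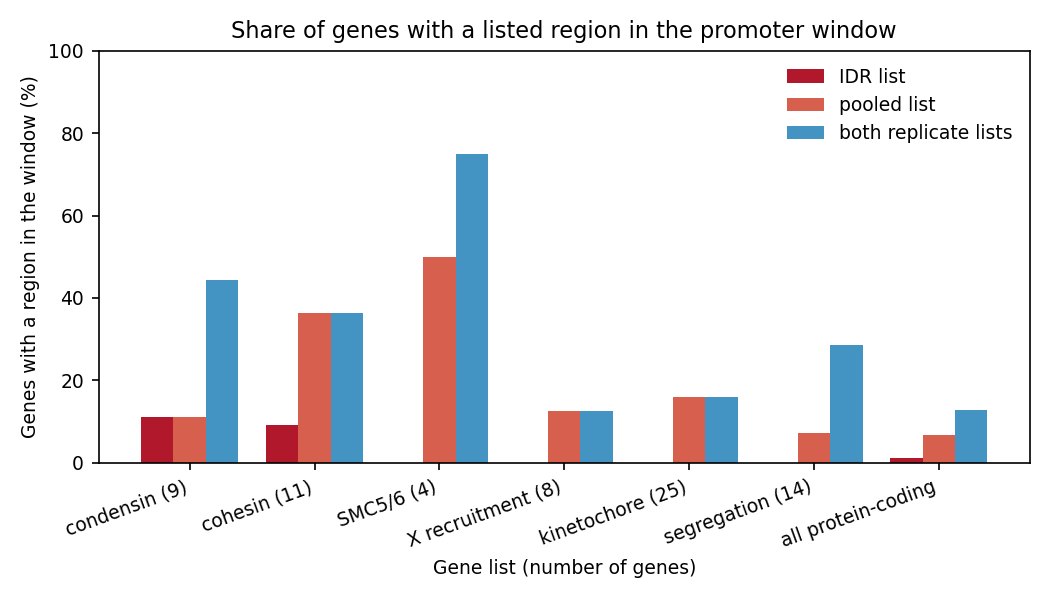
Percent of genes with a listed region in the promoter window, in the IDR list, the pooled list and both replicate lists, for the 9 condensin genes, 5 lists of related genes (number of genes in brackets) and all protein-coding genes. IDR peaks appear for condensin (hcp-6) and cohesin (smc-3) alone among the lists, and the short lists move by large steps with each gene. The condensin set was chosen on the signal at hcp-6, so its IDR and pooled bars reflect that choice. The other 8 condensin genes had no region in either list.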

How the data were processed

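Region lists of 2 replicates were used on build ce11. Per the labels and file notes, the authors called regions on each replicate, called a pooled list on both alignments, and derived an IDR-thresholded list from these 3. What aligned the reads and called regions, and the IDR cutoff, is not given in the sources used here. Signal as deposited has an unstated scale, and the deposited −log10 q-value was not used for ranking, since all IDR peaks share one value. The 4 ce10 lists were not used, because the annotation is of ce11. Depth is unknown.

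Gene models were those of Ensembl release 115, and printed bases come from RefSeq; both are of WBcel235. Regions were placed by summit. Of 63 related genes listed, 62 matched, smc-1 not by that symbol. The members, lists and elements were chosen with earlier results of these data known, and the rule on upstream genes, with dpy-28 and tasp-1, was added after values were seen. Named genes were the 9 members, genes whose window held a counted summit, up to 3 strongest of each list, and the 3 peaks most like hcp-6. The genes of the printed element windows, K01G5.10 and M106.6 were added. No test was run. Window counts and element searches were tested on simulated data. Python 3.11.15, NumPy 2.4.6, pandas 2.3.3 and Matplotlib 3.10.9 were used.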

Additional observations from a re-analysis of the deposited data

How the results depend on the processing

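The count of condensin genes with an IDR peak was 1, hcp-6, with the narrower and the wider window, with any overlap, with the 5′ ends of all transcripts, among the 99 stronger peaks, and with the 198 strongest nuclear regions of either replicate alone. It was 2 when a gene was also counted through the same-strand gene ending within 500 bp upstream, a rule added later that adds dpy-28. The pooled count was 1 in each window and transcript setting. Because the set was chosen on the strong signal at hcp-6, both counts could rise in these settings but could hardly fall. That hcp-6 stayed counted is therefore no check on the result. The count of genes with a region in both replicate lists, 4, was less firm. It was 1 with the window of 500 bp upstream to 100 bp downstream, and 2 when summits had to lie within 100 bp of each other. With replicate 1 or replicate 2 left out it was 4 or 7. Those are the counts of the remaining list, which cannot be lower than the count in both. Of related genes, 1 (smc-3) had an IDR peak. It was 2, with kbp-2, in the window of 2000 bp upstream to 500 bp downstream and when upstream genes were counted, and 0 to 1 with a replicate left out. The 0 is without replicate 1, since smc-3 ranked 427 in replicate 2. Of 27 alternatives, 20 stayed within 1.5 times the count, including those whose count rests on hcp-6, the gene the set was chosen on. No paired analysis was possible because there is 1 group. A list with no region in a window does not show that the site is unbound, and depth could not be weighed, since the lists hold no read counts.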
